A study of Homo sapiens with 6 samples.

Results

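The unfolded protein response and the ATF4 arm of the integrated stress response were followed through 40 genes in Hep G2, a human liver tumor cell line grown in culture. The genes were listed by symbol from what is known of these pathways, with earlier results of these data known, and each had 1 row among the 23524 genes of the expression table. The paper made its overexpressing Hep G2 cells with a lentivirus that carries EFTUD2, a GTPase of the spliceosome, and their controls with a vector lentivirus. The library labels give only control and EFTUD2 overexpression, so the vector in the sequenced controls is inferred. The methods of the study state that stable cells were selected in puromycin, while the promoter of the vector and whether each line is a clone or a pool are not given in the sources used here. There were 3 poly-A selected libraries in each group, numbered 1 to 3 in the labels. Levels are FPKM, fragments counted per gene and divided by transcript length and library size, so levels of different genes can be set side by side. The read number behind a value is unknown, so no counting interval can be given. The paper says in general that its data come from 3 independent experiments, but not whether these libraries came from separate cultures. The p-values below measure the spread between these libraries, which may be technical.

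When unfolded proteins pile up in the endoplasmic reticulum (ER), 3 sensors in its membrane respond. IRE1 (gene ERN1) splices XBP1 mRNA, ATF6 is cut to release a transcription factor, and PERK (gene EIF2AK3) phosphorylates the translation factor eIF2. Phosphorylated eIF2 slows protein synthesis in general but favors translation of ATF4, which then switches on genes for amino acid synthesis and transport, tRNA charging and, under lasting stress, growth arrest and cell death. Other kinases reach eIF2 too, so the ATF4 arm also answers lack of amino acids or heme. Hepatocytes secrete large amounts of protein and depend on a high capacity for folding in the ER. Much of this regulation acts on proteins and on the splicing of XBP1, and a table with 1 RNA level per gene does not show it.

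Sequence elements that ATF6, XBP1 and ATF4 are known to use were looked up in the promoters, because they are the letters through which many of these genes are known as targets. Since targets of these factors were chosen, a high share of matches is part of the choice and is given as a description. RefSeq promoter windows of 300 bases on GRCh38.p14, from 250 bases before to 50 after a start, were matched by Entrez number for 38 of the 40 genes, and PSPH and SHMT2 had no entry. Both strands were searched for the ER stress response element (ERSE), which reads CCAAT, then 9 bases of any kind, then CCACG. It was found in the windows of 6 of the 38 genes, 15.8%, against 0.0916% of all 27305 genes with a window and 0.0769% of all 35116 windows. These belong to ER folding genes and to XBP1, and they are shown with the fixed letters of the element in capitals and 5 bases on either side. The coordinates span the whole printed run, on the strand named.
HSPA5 (chr9:125241386-125241414, minus strand): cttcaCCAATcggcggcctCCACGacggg
HSP90B1 distal (chr12:103930211-103930239, plus strand): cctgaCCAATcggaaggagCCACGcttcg
HSP90B1 proximal (chr12:103930316-103930344, minus strand): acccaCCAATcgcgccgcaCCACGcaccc
CALR (chr19:12938379-12938407, minus strand): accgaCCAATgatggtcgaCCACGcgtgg
PDIA6 (chr2:10812848-10812876, minus strand): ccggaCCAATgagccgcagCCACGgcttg
CRELD2 (chr22:49918549-49918577, minus strand): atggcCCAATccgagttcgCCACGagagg
XBP1 (chr22:28800598-28800626, minus strand): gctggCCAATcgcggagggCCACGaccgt
The element of HSPA5 lay 66 to 48 bases before the start and that of XBP1 52 to 34 bases before it, while that of CALR lay 225 to 207 bases before the start on the strand opposite to the gene. Of the genes printed above, HSP90B1 alone held a pair of matches.

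A shorter arrangement, ERSE-II, reads ATTGG (the complement of CCAAT), 1 base of any kind and CCACG. It was present for HERPUD1, HYOU1 and SDF2L1, 3 of the 38 genes or 7.89%, against 0.0696% of all genes and 0.0541% of all windows, and none of these held the longer element. It lay 117 to 107 bases before the start in HERPUD1 and 188 to 178 in SDF2L1, and HYOU1 had a pair at 185 to 175 and 79 to 69.
HERPUD1 (chr16:56932020-56932040, plus strand): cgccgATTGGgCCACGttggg
HYOU1 distal (chr11:119057375-119057395, plus strand): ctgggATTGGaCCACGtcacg
HYOU1 proximal (chr11:119057269-119057289, plus strand): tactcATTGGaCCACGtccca
SDF2L1 (chr22:21642109-21642129, minus strand): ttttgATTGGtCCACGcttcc
The core of the C/EBP-ATF response element bound by ATF4 (TGATG, 1 base of any kind, AA) is short and occurred in 4.46% of all genes and 3.62% of all windows. It was found for 7 of the 38 genes, 18.4%: AARS, ASNS, ATF3, CEBPG, CHAC1, FGF21 and HERPUD1. The matches of ASNS and CHAC1 are shown as the element of an amino acid gene and of a stress effector.
ASNS (chr7:97872464-97872481, minus strand): aggcaTGATGaAActtcc
CHAC1 (chr15:40953257-40953274, minus strand): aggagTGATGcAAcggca
A match says only that these letters stand in this window. HERPUD1 carried both an ERSE-II and a C/EBP-ATF match.

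EFTUD2 itself stood at 41.1, 54.4 and 46.3 FPKM in the controls (replicates 1 to 3 in order) against 107, 103 and 109 FPKM in the EFTUD2 libraries, in accord with the labels. The table does not separate vector transcripts from those of the cells' own gene. All 12 hepatocyte markers looked up, albumin and alpha-fetoprotein among them, were at 1 FPKM or more in every library. The 8 fibroblast markers summed to 0.52 to 1.6 FPKM in the controls and to 2.33 to 4.84 FPKM in the EFTUD2 libraries, with COL1A2 at 0 in all 6. COL1A1, COL3A1 and LUM were higher in EFTUD2 replicates 1 and 2, up to 2.05 FPKM for COL1A1, while in EFTUD2 replicate 3 PDGFRB made up 2.07 of the 2.33 FPKM and COL1A1 was at 0.11 FPKM, within the range of the controls. Of the 6 macrophage markers, TYROBP was at 0 in all libraries and PTPRC at 0.02 FPKM or less, although the list summed to 744 to 2262 FPKM in the controls against 852 to 1724 FPKM in the EFTUD2 libraries through LYZ, a gene that Hep G2 expressed at 744 FPKM or more in each library. The 5 endothelial markers summed to 1.09 to 1.53 and 1.29 to 1.6 FPKM, with CDH5 and VWF higher and PECAM1 lower in every EFTUD2 library, all at 1.19 FPKM or less. The part of such cells in the results below was not tested. In bulk RNA, fewer cells of a type and less RNA per cell cannot be told apart. Control replicate 1 and EFTUD2 replicate 3 stood apart from the other libraries of their groups for many of the stress genes. For some genes the log2 fold change without either or both of them is also given. A gene without such a value is not thereby stable.

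The groups were compared in limma with a trend, on log2(FPKM + 1), which makes changes of low genes look smaller, over all 17222 genes whose mean was at least 0.1 FPKM. Of the 40 genes, 39 passed this filter, and FGF21, a hepatokine induced by stress and fasting, did not, at 0 to 0.09 FPKM in every library. No gene of the response had a Benjamini-Hochberg adjusted p under 0.05 in limma (0 of 39), as for all genes tested (0%), and the lowest adjusted p among the 39 was 0.40. EFTUD2 itself did not pass either (log2 fold change 1.16, SE 0.12, adjusted p = 0.13 in limma). A gene that misses this threshold is thus not shown to be unchanged. An unadjusted p under 0.05 was reached by 3 of the 39 (CHAC1, MTHFD2 and HSP90B1), 7.69% against 12.3% of all genes. All 3 were higher, against 4.4% of all genes, and 0 were lower, against 7.9%. The median log2 fold change was 0.01 over the 39 genes and -0.07 over all genes tested, with 20 above 0 and 19 below.

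The control and EFTUD2 libraries did not overlap for 10 of the 39 genes, 25.6%, against 27.3% of all genes tested, which is near the background. With 3 libraries against 3, an exact two-sided permutation test gives p = 0.1 for each of them, the smallest p it can give. Every EFTUD2 library was above every control for 7 of the 39 (CHAC1, VLDLR, STC2, PSAT1, SHMT2, MTHFD2 and HSP90B1), 17.9% against 7.92% of all genes. It was below for 3 (ATF6, EIF2AK3 and SESN2), 7.69% against 19.4%. This split depended on the scaling. Under median of ratios scaling, 11 genes were higher and 1 lower in every EFTUD2 library (28.2% and 2.56% of the 39), against 11.9% and 12.1% of all genes. Without EFTUD2 replicate 3 the groups separated for 18 of the 39 genes (46.2%, against 40.1% of all genes), and without control replicate 1 for 12 (30.8%, against 39.5%).

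**Figure D1:**
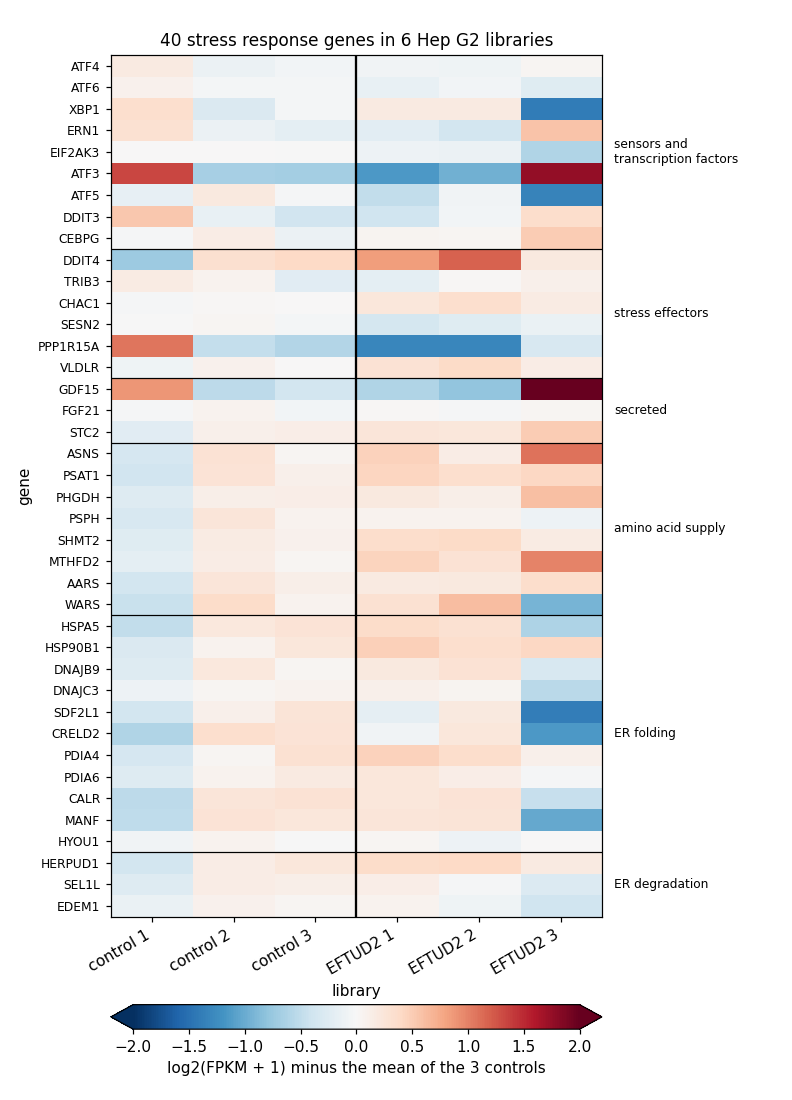
Each cell gives log2(FPKM + 1) of 1 gene (rows, ordered by role) in 1 library (columns) minus the mean of the 3 controls, with colors ending at -2 and 2 on the log2 scale. The columns of control 1 and EFTUD2 3 share red cells for ATF3 and GDF15 and blue cells for many ER folding genes, while XBP1 is red in control 1 and blue in EFTUD2 3.

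Among the sensors and transcription factors, none of the genes that start the response passed the threshold in limma. This does not show them to be unchanged. ATF4 mRNA was abundant, at 278, 226 and 236 FPKM in the controls (replicates 1 to 3 in order) against 234, 232 and 252 FPKM in the EFTUD2 libraries. Its groups overlapped fully (log2 fold change -0.04, SE 0.12, adjusted p = 0.89 in limma), and its direction turned under median of ratios scaling and without control replicate 1. ATF6 was at 15.5, 14.1 and 14.1 FPKM in the controls against 13.1, 13.98 and 12.1 FPKM in the EFTUD2 libraries. Each EFTUD2 library was below each control, by a narrow margin, with a log2 fold change of -0.15 (SE 0.11, adjusted p = 0.53 in limma). EIF2AK3, which encodes PERK, had closely matched controls at 10.5, 10.6 and 10.4 FPKM and EFTUD2 libraries at 9.73, 9.58 and 6.57 FPKM. It was lower in each EFTUD2 library, and replicate 3 was the lowest (log2 fold change -0.27, SE 0.16, adjusted p = 0.45 in limma). Without that library the log2 fold change was -0.11. Under median of ratios scaling and under quantile normalization, EIF2AK3 was the 1 gene of the 39 that was still lower in every EFTUD2 library. ERN1, the gene of the third sensor IRE1, was low, at 3.77, 2.58 and 2.40 FPKM in the controls against 2.35, 2.0 and 4.74 FPKM in the EFTUD2 libraries. Control replicate 1 and EFTUD2 replicate 3 were the high ones, and the log2 fold change was 0.00 in size (SE 0.28, adjusted p = 0.996 in limma), with a direction that turned under 2 of the 3 other scalings.

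XBP1 mRNA, the substrate of IRE1, was at 394, 253 and 302 FPKM in the controls. In the EFTUD2 libraries it was at 352, 354 and 117 FPKM, so replicate 3 held the lowest level of the 6 libraries while replicates 1 and 2 lay within the range of the controls. The log2 fold change was -0.34 (SE 0.44, adjusted p = 0.70 in limma) with all libraries and 0.18 without EFTUD2 replicate 3. The values do not tell spliced from unspliced XBP1. ATF5, a bZIP factor that is translated under eIF2 phosphorylation, had the largest negative difference of this group, with 12.6, 16.5 and 13.97 FPKM in the controls against 9.84, 13.5 and 5.05 FPKM. The groups overlapped through EFTUD2 replicate 2 (log2 fold change -0.63, SE 0.31, adjusted p = 0.42 in limma), and the log2 fold change was -0.29 without EFTUD2 replicate 3 and -0.19 with array weights. CEBPG, a partner of ATF4 on DNA, was between 16.6 and 20.1 FPKM in the controls against 18.6 and 26.3 FPKM in the EFTUD2 libraries. It was the 1 gene of the 9 in this group with a log2 fold change above 0 (0.20, adjusted p = 0.55 in limma).

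ATF3 and DDIT3, which encodes CHOP, are transcription factors that cells induce strongly under stress. ATF3 was at 25.4 FPKM in control replicate 1 and at 5.60 and 5.54 FPKM in control replicates 2 and 3. In the EFTUD2 libraries it was at 3.72, 4.36 and 34.3 FPKM. There was thus 1 high library in each group, and the group means of 12.2 ± 11.4 and 14.1 ± 17.5 FPKM (SD, n = 3 each) have SDs as large as themselves. Its log2 fold change was -0.12 (SE 0.89, adjusted p = 0.95 in limma), and over the fits that each left out 1 library it ran from -1.05 to 0.55. DDIT3 was at 24.6, 15.0 and 12.6 FPKM in the controls against 12.4, 16.0 and 21.5 FPKM in the EFTUD2 libraries, with control replicate 1 and EFTUD2 replicate 3 again the highest of their groups. Its log2 fold change of -0.04 (SE 0.28, adjusted p = 0.95 in limma) turned to 0.07 under median of ratios scaling and to 0.08 under quantile normalization.

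The stress effectors act downstream of ATF4 and CHOP. PPP1R15A (GADD34), which brings a phosphatase to eIF2 and ends the response, was at 63.3, 20.9 and 19.3 FPKM in the controls against 11.4, 11.3 and 23.5 FPKM in the EFTUD2 libraries. EFTUD2 replicates 1 and 2 were below every control, while replicate 3 was above 2 of them. It had the most negative log2 fold change of the 39 genes, -0.98 (SE 0.49, adjusted p = 0.42 in limma), which was -0.44 without control replicate 1. Without both that library and EFTUD2 replicate 3 the value was -0.77, with an adjusted p of 0.067 in limma. This pair was left out after seeing the data, and both libraries were the highest of their groups for PPP1R15A. That p is therefore no evidence of a change. DDIT4 (REDD1), an inhibitor of mTORC1, had the most positive log2 fold change, 0.74 (SE 0.37, adjusted p = 0.42 in limma). That value was 0.38 without control replicate 1 and 1.01 without EFTUD2 replicate 3. The FPKM values of DDIT4 were 21.1, 44.9 and 47.1 in the controls against 64.2, 82.1 and 40.9. EFTUD2 replicate 3 lay within the range of the controls, and the other 2 above it.

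CHAC1, which degrades glutathione and is a classical ATF4 target, was barely detected. It was listed at 0.07, 0.11 and 0.09 FPKM in the controls against 0.27, 0.37 and 0.22 FPKM in the EFTUD2 libraries. Each EFTUD2 library was above each control, with a ratio of the means of 3.19, and on the scale of log2(FPKM + 1) the difference was 0.24 (SE 0.08, adjusted p = 0.40 in limma). The values are rounded to 2 decimals, so single units in the last place are a large part of the control levels. VLDLR, a lipoprotein receptor induced through ATF4 in liver, was at 2.38, 2.80 and 2.62 FPKM against 3.41, 3.70 and 2.98 FPKM. All 3 EFTUD2 libraries were higher, by 0.28 on the log2 scale (SE 0.13, adjusted p = 0.41 in limma). SESN2, a sestrin that restrains mTORC1, went the other way, from 11.4, 11.9 and 11.2 FPKM to 8.75, 9.58 and 10.5 FPKM. It was lower in each EFTUD2 library (log2 fold change -0.24, SE 0.11, adjusted p = 0.41 in limma), but not in each under median of ratios or quantile scaling. TRIB3, a pseudokinase that feeds back on ATF4, was at 54.8 to 72.0 FPKM in the controls against 56.5 to 68.9 FPKM in the EFTUD2 libraries, and its direction turned under 2 of the 3 other scalings.

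Of the secreted factors, GDF15, a stress hormone that curbs appetite, varied widely between libraries. It was at 748, 283 and 315 FPKM in the controls (replicates 1 to 3 in order) against 268, 234 and 2072 FPKM in the EFTUD2 libraries. EFTUD2 replicate 3 was thus far above all other libraries, and EFTUD2 replicates 1 and 2 were below every control. The log2 fold change was 0.32 (SE 0.86, adjusted p = 0.86 in limma) with all libraries, -0.69 without EFTUD2 replicate 3, and -0.25 without both that library and control replicate 1, so its sign rests on 1 library. STC2, a secreted glycoprotein induced by ER stress, was steadier, with 16.6, 21.2 and 21.8 FPKM in the controls against 23.6, 23.1 and 28.4 FPKM in the EFTUD2 libraries. Each EFTUD2 library was higher (log2 fold change 0.32, SE 0.14, adjusted p = 0.40 in limma), with a log2 fold change of 0.21 without control replicate 1.

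**Figure D2:**
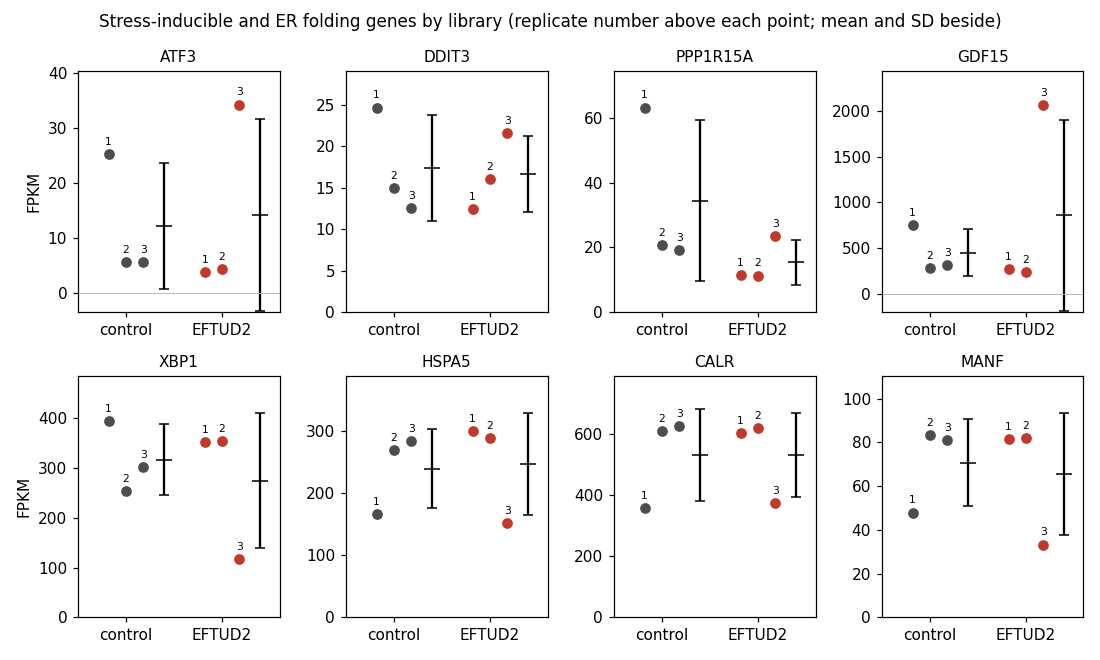
FPKM in each library (points, with the replicate number above) is plotted for 8 genes in control and EFTUD2 cells, with the mean and SD of 3 libraries beside them. In the upper row ATF3, DDIT3, PPP1R15A and GDF15 were highest in control 1 and EFTUD2 3 of their groups, and in the lower row HSPA5, CALR and MANF were lowest in those same libraries, while XBP1 was highest in control 1 and lowest in EFTUD2 3.

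The genes of amino acid supply make serine, asparagine and one-carbon units or charge tRNAs, and ATF4 drives them when amino acids are short. Of the 8 genes, 7 (87.5%) had a log2 fold change above 0, against 37.3% of all genes tested, with a median of 0.30. PSPH counts among the 7 at 0.01, and its direction held under 11 of 17 alternatives. Under median of ratios scaling, 50.3% of all genes were above 0. Control replicate 1 was low for this group, with a median departure of -0.48 on the log2 scale from the mean of the other 2 controls. In every EFTUD2 library 3 of the 8 (37.5%) were higher, against 7.92% of all genes, none of them past the threshold in limma. PSAT1, an aminotransferase of serine synthesis, was at 82.9, 131 and 116 FPKM in the controls against 146, 137 and 144 FPKM in the EFTUD2 libraries. The EFTUD2 libraries were close together and the controls spread by more than the gap between the groups (log2 fold change 0.39, SE 0.18, adjusted p = 0.40 in limma). Without control replicate 1 its log2 fold change was 0.20. SHMT2, which turns serine into glycine in mitochondria, was at 72.2, 95.8 and 91.4 FPKM against 109, 112 and 96.6 FPKM. Control replicate 2 and EFTUD2 replicate 3 nearly met, and under a common sum per library the groups overlapped (log2 fold change 0.30, SE 0.14, adjusted p = 0.41 in limma). The value was 0.18 without control replicate 1.

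MTHFD2, the next mitochondrial enzyme in that pathway, had a clearer gap, with 53.5, 67.8 and 62.9 FPKM in the controls against 84.0, 74.8 and 122 FPKM in the EFTUD2 libraries. Its log2 fold change of 0.58 (SE 0.20, adjusted p = 0.40 in limma) was 0.28 without both control replicate 1 and EFTUD2 replicate 3, the libraries at its lowest and highest values. ASNS, asparagine synthetase, was at 21.9, 34.3 and 28.6 FPKM against 38.7, 31.1 and 60.2 FPKM. The groups overlapped, and the log2 fold change of 0.57 (SE 0.27, adjusted p = 0.41 in limma) was 0.14 without those libraries. PHGDH, which starts serine synthesis, had a log2 fold change of 0.31 and AARS, the alanyl-tRNA synthetase, one of 0.24. In both cases the groups overlapped, and the lowest values over 17 alternatives were 0.03 for PHGDH and 0.006 for AARS. PSPH, the last enzyme of serine synthesis, had equal group means of 25.8 FPKM. WARS, the tryptophanyl-tRNA synthetase, is also induced by interferon, and it was at 20.9, 37.5 and 30.2 FPKM in the controls against 35.7, 44.6 and 14.6 FPKM in the EFTUD2 libraries, lowest in control replicate 1 and EFTUD2 replicate 3.

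The ER folding genes were mostly abundant, and their controls differed among themselves as much as from the EFTUD2 libraries. HSPA5 (BiP), the chaperone that holds the sensors inactive, was at 166, 269 and 283 FPKM in the controls (replicates 1 to 3 in order) against 299.8, 288 and 152 FPKM in the EFTUD2 libraries. The lowest value of each group was well below the others, and the group difference was 0.02 on the log2 scale (SE 0.32, adjusted p = 0.98 in limma), with a direction that turned under quantile normalization and under a common sum per library. The log2 fold change was -0.22 without control replicate 1 and 0.34 without EFTUD2 replicate 3. HSP90B1 (GRP94) was at 215, 274 and 305 FPKM against 366, 331 and 348 FPKM. It was the 1 gene of the 11 whose EFTUD2 libraries were all above all controls (log2 fold change 0.41, SE 0.15, adjusted p = 0.40 in limma), with a log2 fold change of 0.27 without control replicate 1.

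Other members of the group stood low in control replicate 1 and EFTUD2 replicate 3 together. CALR, calreticulin, which folds glycoproteins, was at 357, 610.4 and 629 FPKM in the controls against 604, 621 and 374 FPKM in the EFTUD2 libraries. MANF, a small secreted protein that binds BiP, was at 47.9, 83.4 and 81.0 FPKM against 81.4, 81.9 and 33.3 FPKM. In both genes the other 4 libraries lay within a few percent of one another. CRELD2, another ER protein induced by ATF6, was at 11.2, 22.3 and 21.4 FPKM against 16.6, 20.6 and 7.36 FPKM (log2 fold change -0.33, SE 0.40, adjusted p = 0.69 in limma). SDF2L1, a cofactor of BiP, was at 33.4, 46.6 and 52.3 FPKM against 38.1, 49.8 and 16.0 FPKM (log2 fold change -0.46, SE 0.40, adjusted p = 0.58 in limma). Without EFTUD2 replicate 3 both differences changed sign, to 0.08 and 0.01. The other 7 genes of the group had log2 fold changes from -0.18 for MANF to 0.30 for PDIA4, a disulfide isomerase, and HYOU1, a large ER chaperone, was level at 54.8 to 62.3 FPKM in all 6 libraries.

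ER-associated degradation was represented by 3 genes, with 1 log2 fold change above 0 and 2 below. HERPUD1, which assembles the degradation complex, was at 35.8, 51.8 and 54.4 FPKM in the controls against 60.1, 61.4 and 53.0 FPKM in the EFTUD2 libraries. The groups overlapped by a small margin (log2 fold change 0.31, adjusted p = 0.44 in limma), and they separated under median of ratios scaling and quantile normalization. SEL1L and EDEM1, which pick and hand over misfolded glycoproteins, were between 16.5 and 24.3 FPKM in the controls and between 13.5 and 24.3 FPKM in the EFTUD2 libraries.

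**Figure D3:**
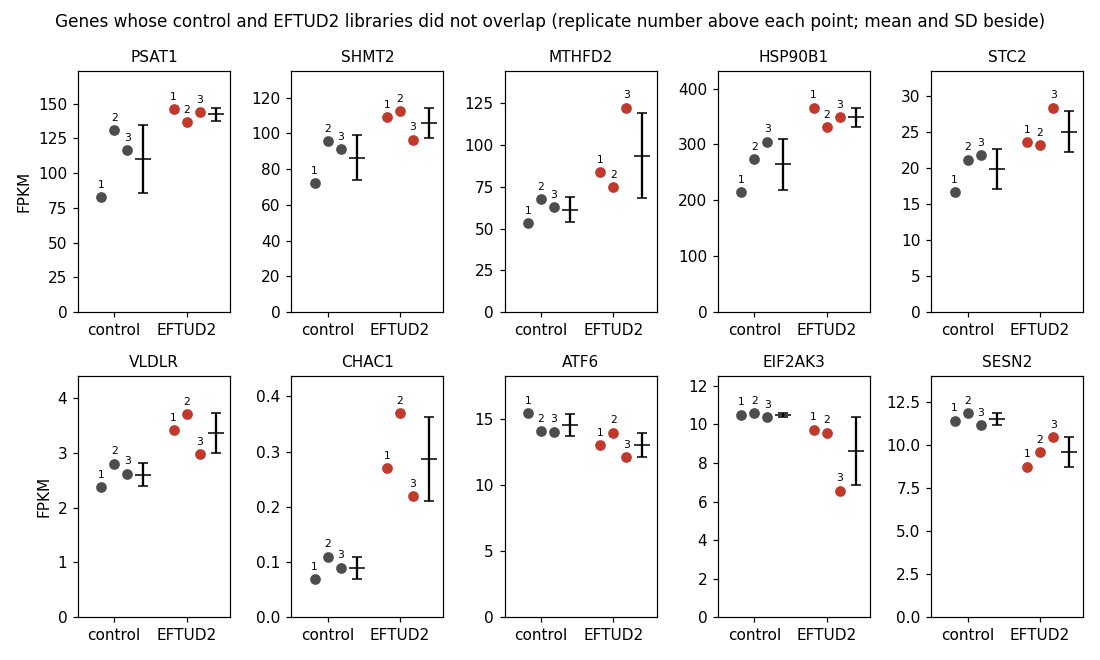
FPKM in each library (points, replicate number above) is plotted for the 10 genes whose groups did not overlap, with the mean and SD of 3 libraries beside them. The gap between the groups is small for SHMT2 and ATF6, and CHAC1 is at 0.37 FPKM or less in every library.

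**Figure D4:**
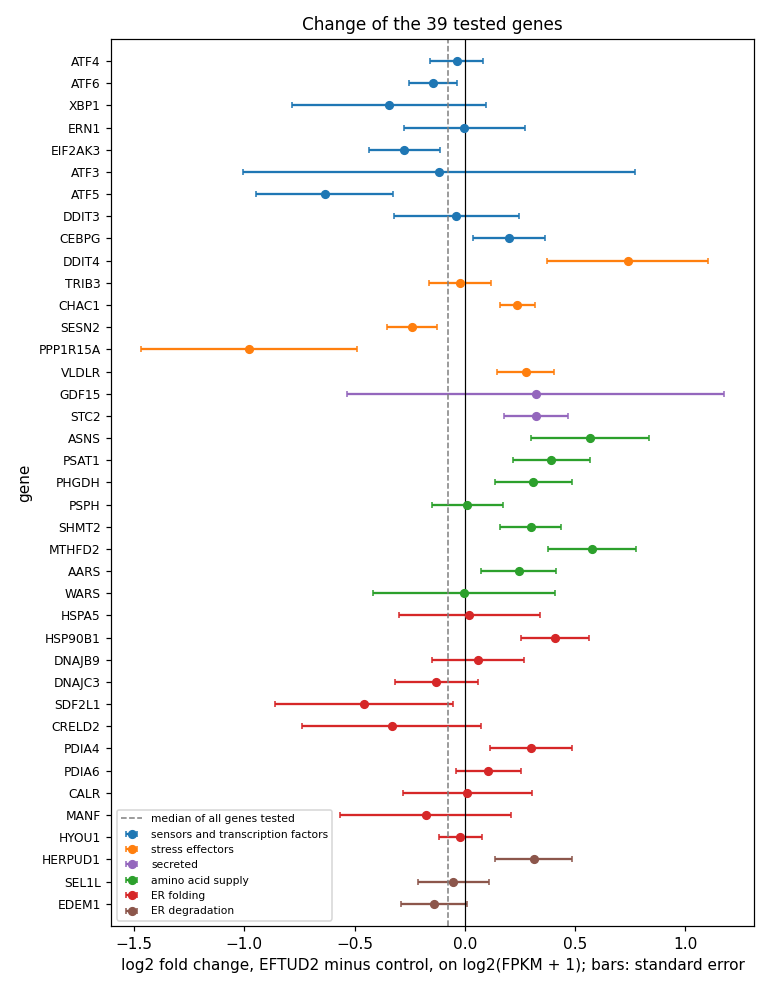
The log2 fold change (EFTUD2 minus control, on log2(FPKM + 1)) of the 39 tested genes is shown with its standard error, colored by role, and the dashed line marks the median of all genes tested at -0.07. Values run from -0.98 for PPP1R15A to 0.74 for DDIT4, and the bars of ATF3 and GDF15 are the widest.

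The departure of each library from its own group was then described, as log2(FPKM + 1) minus the mean of the other 2 libraries of the group. In control replicate 1, 5 of the 39 genes were at least 0.5 higher (12.8%, against 5.91% of all genes tested) and 11 at least 0.5 lower (28.2%, against 2.8%). In EFTUD2 replicate 3, 7 were at least 0.5 higher (17.9%, against 8.99%) and 11 at least 0.5 lower (28.2%, against 21.4%). At least 0.5 higher were 1 of the 39 in control replicate 2 (1.43% of all genes), 1 in control replicate 3 (1.03%), 3 in EFTUD2 replicate 1 (2.78%) and 7 in EFTUD2 replicate 2 (9.82%). At least 0.5 lower were 3 (3.5%), 4 (0.975%), 3 (2.28%) and 4 (3.9%) of the 39 in the same order. A library low or high in its group sets the mean that its partners are held against, so these counts are not separate from those above. EFTUD2 replicate 3 thus departed from its group over the whole table. Low values were more frequent among these genes than over all genes in control replicate 1, and also in control replicate 3 (10.3%, against 0.975%). On log2(FPKM + 1) genes of low level can fall only a little. A mean of at least 1 FPKM was held by 38 of the 39 genes but by 12556 of all 17222, so these shares do not compare like genes. The genes high in both control replicate 1 and EFTUD2 replicate 3 were ATF3 (2.01 and 2.81 on the log2 scale), GDF15 (1.32 and 3.05), PPP1R15A (1.61 and 0.99) and DDIT3 (0.80 and 0.58). Of the 11 ER folding genes, 6 were at least 0.5 lower in control replicate 1 and 7 in EFTUD2 replicate 3, with medians of -0.50 and -0.63, and 0 were at least 0.5 higher in either.

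Genes differed in the direction of these departures, also within a role. XBP1 was 0.51 higher in control replicate 1 and 1.58 lower in EFTUD2 replicate 3, unlike ATF3 and DDIT3 of the same role. ASNS was 0.50 lower in control replicate 1 but 0.78 higher in EFTUD2 replicate 3, and MTHFD2 0.28 lower and 0.62 higher. WARS, also of amino acid supply, was 0.66 lower in control replicate 1 and 1.39 lower in EFTUD2 replicate 3. Over the 39 genes, the deviations from the group mean in control replicate 1 and EFTUD2 replicate 3 had a correlation of 0.72, and over all 17222 genes one of 0.38. Over the 39 genes, controls 2 and 3 with EFTUD2 replicates 1 and 2 gave 0.62 to 0.76, and the other 4 pairs of libraries gave -0.76 to -0.65. These are descriptions across genes of the same 6 libraries, and the 3 deviations of a group sum to 0, so that all 9 pairs carry the same pattern. Among library measures, the FPKM sum was 404342 in control replicate 1 and 434542 in EFTUD2 replicate 3, the lowest and highest of the 6, and the 10 most abundant genes held 7.26% and 9.20% of the sum, against 7.05% to 7.84% in the other libraries. EFTUD2 was at 41.1 FPKM in control replicate 1 and 109 FPKM in EFTUD2 replicate 3. The part of these measures in the departures was not tested.

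**Figure D5:**
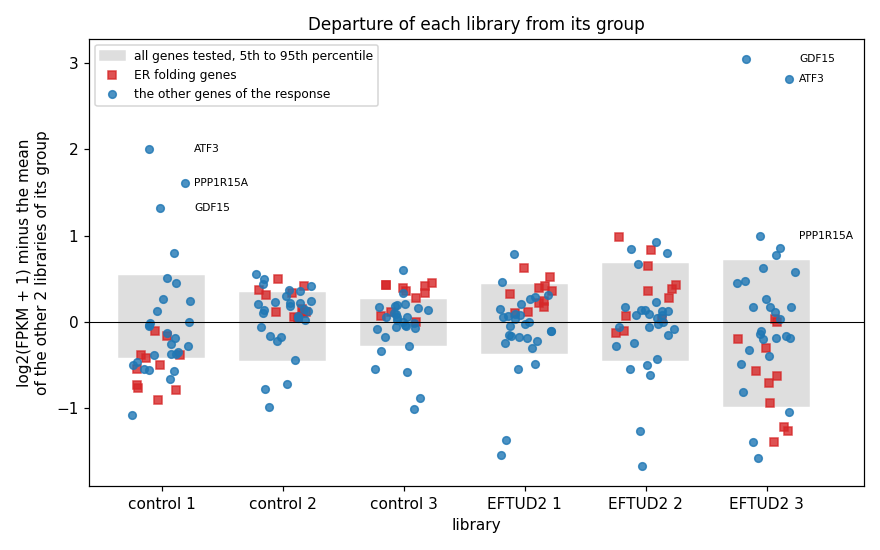
For each library, points give log2(FPKM + 1) of each of the 39 tested genes minus the mean of the other 2 libraries of its group, with ER folding genes as red squares, and grey boxes span the 5th to 95th percentile of all genes tested. In control 1 the squares all lie below 0, with ATF3 at 2.01 at the top, and in EFTUD2 3 GDF15 and ATF3 reach 3.05 and 2.81 while 7 squares lie at -0.5 or lower.

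The genes that carry the printed promoter elements did not share 1 course. Of the 6 genes with an ERSE, 1 (HSP90B1) was higher in every EFTUD2 library and 0 lower, with log2 fold changes from -0.34 for XBP1 to 0.41 for HSP90B1. Over all genes tested, 7.92% were higher and 19.4% lower in every EFTUD2 library. Of the 6 ERSE genes, 3 were at least 0.5 lower in control replicate 1 and 4 in EFTUD2 replicate 3, among them HSPA5, CALR and CRELD2 in both. The shares over all genes tested were 2.8% in control replicate 1 and 21.4% in EFTUD2 replicate 3. PDIA6, whose element lies at nearly the same distance from the start as that of CRELD2, departed by -0.39 and -0.20. The 3 ERSE-II genes ran from -0.46 (SDF2L1) to 0.31 (HERPUD1), with HYOU1 at -0.02. Of the 7 genes with the C/EBP-ATF core, 6 were tested, and their log2 fold changes ran from -0.12 for ATF3 to 0.57 for ASNS.

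Further genes of these pathways were taken from 3 lists of 89 genes in all. None had an adjusted p under 0.05 in limma (0 of the 88 tested). Over the alternatives listed below, the lowest adjusted p in limma was under 0.05 for CEBPB (0.042), NCK2 (0.043) and EIF2AK4 (0.049). An unadjusted p under 0.05 was found for 8 (9.09%, against 12.3% of all genes). The lists differed in this. The 8 were 6 of 15 genes of the eIF2 machinery (40%), 0 of 37 ER folding and degradation genes and 2 of 36 ATF4 genes (5.56%). Among the 15 eIF2 genes, 4 had a log2 fold change above 0 and 11 below, with a median of -0.17 (-0.07 over all genes). In every EFTUD2 library 5 (33.3%) were lower, against 19.4% of all genes, and 1 (6.67%) was higher, against 7.92%. Subunits of eIF2B, the exchange factor that phosphorylated eIF2 blocks, made up 3 of the 5 (EIF2B2, EIF2B4 and EIF2B5). EIF2AK4 and NCK2 were the others. The remaining eIF2B subunits, EIF2B1 (log2 fold change -0.25) and EIF2B3 (-0.17), had overlapping groups. Their direction held under 15 and 16 of 17 alternatives. EIF2B4 was at 46.1, 37.1 and 33.4 FPKM in the controls against 26.1, 24.9 and 16.7 FPKM in the EFTUD2 libraries (log2 fold change -0.77, SE 0.20, adjusted p = 0.40 in limma), and EIF2B2 at 26.0, 27.3 and 23.9 FPKM against 18.2, 18.8 and 16.0 FPKM (log2 fold change -0.52, SE 0.11, adjusted p = 0.33 in limma). The groups were well apart for both, and the direction was the same under all 17 alternatives. EIF2S1, the subunit of eIF2 that is phosphorylated, had a log2 fold change of -0.40 with overlapping groups, and EIF2S3, another subunit, one of 0.24 with each EFTUD2 library higher. EIF2A and PPP1R15B had values of 0.19 and 0.12.

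Of 38 further ER folding and degradation genes, 37 were tested, 15 above 0 and 22 below, with a median of -0.03. In every EFTUD2 library 3 (8.11%) were higher, against 7.92% of all genes, and 2 (5.41%) were lower, against 19.4%. Among those with a mean of at least 1 FPKM, the highest values were those of the disulfide isomerases PDIA5 (0.45) and P4HB (0.22) and of YIPF2 (0.21), and the lowest those of SRP19 (-0.33), TXNDC11 (-0.31) and DERL2 (-0.29). Of 36 further genes of the ATF4 program and amino acid supply, 24 were above 0 and 12 below, with a median of 0.09. NUPR1, a small stress-induced chromatin protein, was at 4.94, 18.5 and 13.3 FPKM in the controls against 20.2, 31.0 and 19.8 FPKM in the EFTUD2 libraries (log2 fold change 1.03, SE 0.43, adjusted p = 0.40 in limma). The lowest value over 17 alternatives was 0.53, and control replicate 1 was the lowest of the 6 libraries. CEBPB, a bZIP factor that pairs with ATF4, was at 35.7, 28.1 and 34.4 FPKM against 41.5, 48.5 and 57.3 FPKM (log2 fold change 0.57, SE 0.15, adjusted p = 0.40 in limma). Both were higher in every EFTUD2 library, as was VEGFA. These were 3 of the 36 (8.33%), near the 7.92% of all genes, and 1 was lower (2.78%, against 19.4%). JDP2 had the next highest log2 fold change (0.48), and the lowest were the amino acid carriers SLC1A4 (-0.42) and SLC3A2 (-0.25) and the kinase RIOK3 (-0.30).

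Reads of some members can come from other loci. In the RefSeq table, 9 of the 40 genes have pseudogenes named after them, among them MTHFD2 with 7, ASNS with 5 and ATF4 and PSAT1 with 4 each. In GENCODE release 29, exons of 16 of the 40 overlap an exon of another gene, for MTHFD2 and SHMT2 on the opposite strand and for HSP90B1 on both strands. Whether the counting used strand is not given in the sources used here, so the values of these genes are uncertain to that extent.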

How the data were processed

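Poly-A selected RNA of 3 control and 3 EFTUD2-overexpressing Hep G2 libraries was sequenced on the BGISEQ-500 platform. The authors deposited 1 table of FPKM values per gene and library, rounded to 2 decimals. The submitters' processing notes name HISAT2, Bowtie2, RSEM and DESeq2 and the build hg38, without versions. No gene counts were used, and a search of low values for a common step between libraries found none (at most 1.63% of genes shared the commonest ratio).

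The members and gene lists were chosen with earlier results of these data known. The deposited FPKM values were put on the scale of log2(FPKM + 1), and genes averaging 0.1 FPKM or more were fitted with limma 3.58.1 (lmFit, eBayes with trend) in R 4.3.3, with Benjamini-Hochberg adjustment over all genes and a threshold of 0.05. The test was tried on simulated data with independent noise and changes larger than that of any member. This does not tell how often changes of the members' size would be called. A fold change is EFTUD2 minus control. Named members are 8 sensors, factors and HSPA5, GDF15, every member whose groups do not overlap, and the 5 largest differences in either direction. CEBPG, CALR, MANF, WARS and the remaining members were named after their values were seen. The wider lists are named by their 3 highest and 3 lowest fold changes. EIF2B1, EIF2B3, EIF2B5, EIF2AK4, NCK2 and VEGFA were named besides these. Alternatives were pseudocounts of 0.1 and 0.01, the filter dropped or raised to 1 FPKM, 3 other scalings, array weights, robust empirical Bayes, the replicate number as a block and each library left out. Leaving out control replicate 1 and EFTUD2 replicate 3 together was chosen after seeing the data. Python 3.11.15, pandas 2.3.3 and matplotlib 3.10.9 were used for the other steps.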

Additional observations from a re-analysis of the deposited data

How the results depend on the processing

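No member had an adjusted p under 0.05 in limma under any alternative except array weights, where CHAC1 alone did (1 member, log2 fold change 0.31, adjusted p = 0.021). The estimation of these weights stopped before it converged. Over all genes, 0 were called, but 1246 with array weights, 0 to 167 in the fits that each left out 1 library, and 16 without both control replicate 1 and EFTUD2 replicate 3. Members whose groups did not overlap numbered 10 (7 higher, 3 lower), and 10 to 18 (7 to 11 higher, 3 to 7 lower) when 1 library was left out. Leaving out both libraries gave 21 (12 higher, 9 lower), 53.8% against 54.4% of all genes, as groups of fewer libraries separate more easily. Median of ratios scaling gave 11 higher and 1 lower and quantile normalization 1 lower. The median log2 fold change of 0.01 was 0.12 under median of ratios scaling and -0.015 to 0.16 with 1 library left out.

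Of 390 alternative values of the 23 named members, 358 kept direction and side of the threshold and 31 turned in direction, and 14 members turned under none. Median of ratios scaling turned ATF4 (0.080), DDIT3 (0.074) and ERN1 (0.091), and quantile normalization DDIT3 (0.082), ERN1 (0.060) and HSPA5 (-0.030). A common sum per library turned HSPA5 (-0.023). Array weights turned DDIT3 (0.32), GDF15 (-0.14), HSPA5 (-0.038) and XBP1 (0.072). Without both libraries ATF4 (0.01), DDIT3 (0.04), GDF15 (-0.25) and XBP1 (0.35) turned. With 1 library left out, the log2 fold change ran from -1.05 to 0.55 for ATF3, -0.10 to 0.051 for ATF4, -0.63 to 0.076 for CRELD2, -0.23 to 0.23 for DDIT3, -0.29 to 0.18 for ERN1, -0.69 to 0.88 for GDF15, -0.22 to 0.34 for HSPA5, -0.78 to 0.0059 for SDF2L1 and -0.61 to 0.18 for XBP1. The cause of these turns was not tested.

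The replicate numbers are not known to pair the libraries. Deviations of same-numbered libraries correlated at -0.30, 0.35 and -0.09 over genes, and control replicate 1 went with EFTUD2 replicate 3 (0.38). With the replicate number as a block, 0 members and 0 genes had an adjusted p under 0.05, and 2 members had an unadjusted one, against 3 without the block.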
